A study of Mus musculus with 19 samples.

Results

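Potassium channel genes were followed in the striatum as the 86 protein-coding genes whose symbol starts with Kcn in the authors' deposited tables, Kcnj13 excepted, of 49592 genes counted. They comprise pore-forming subunits and the auxiliary subunits named with them, and were sorted into 11 role groups by channel class. Of the 86, 84 passed the filter on low counts and were tested among 21513 genes. Kcna10 and Kcnv2 did not pass, with saline control means of 0.0352 and 0.0124 FPKM (fragments per kilobase of transcript and library size, the authors' value per gene length).

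RNA was sequenced from the striatum of 19 male mice aged 4 months. All animals carried D2RCre and floxCas9-EGFP, so that Cas9 depends on Cre from the D2 dopamine receptor gene, and all had an AAV5 injection into the medial prefrontal cortex (mPFC). Knockout mice received AAV5 D2R-sgRNA, which guides Cas9 to the D2 receptor gene, and control mice received AAV5 syn-mCherry, which carries no guide. Some weeks after surgery each mouse had 5 days of saline and, on day 9, a single intraperitoneal challenge with saline or with amphetamine at 3 mg/kg. The time from challenge to death is given as 90 min for amphetamine and is not stated apart for saline. The 4 groups held 5 control mice given saline, 5 control mice given amphetamine, 5 knockout mice given saline and 4 knockout mice given amphetamine. The prefrontal tissue that received the virus was not analysed here, so these counts hold no check of the knockout.

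Potassium channels let potassium leave the cell, and so set the resting potential, end the action potential and limit repetitive firing. Voltage-gated (Kv) pores are built from tetramers of alpha subunits, whose surface number and gating depend on auxiliary subunits such as the Kv beta proteins (Kcnab genes) and the Kv channel-interacting proteins (KChIPs, Kcnip genes). Striatal projection neurons are known for a very negative resting potential held by inward rectifiers and for an A-type, fast-inactivating Kv4 current that delays their first spike.

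The libraries held 57003408 to 85536346 counts. Markers of striatal projection neurons, 14 genes including Ppp1r1b and Pde10a, had a mean log2 CPM between 7.31 and 8.83 in all libraries, so the defining markers of the labelled tissue were present. Amphetamine knockout libraries 2 and 3 had the lowest values of that score, 7.70 and 7.31, and together with saline knockout 3 and saline control 5 stood apart on principal components or in marker levels. Counts of members are given with and without these libraries where they moved, as are the values of selected members, a choice made after seeing the data. All-gene shares are not given for fits that leave out a single library. Fits without amphetamine knockout 2 and 3 keep only amphetamine knockout 1 and 4 in that group, so their tests rest on fewer mice. In bulk tissue, fewer cells of a type and less RNA per cell cannot be told apart.

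The striatum held transcripts of every class, at very unequal levels. In saline control mice 35 members had a mean of at least 10 FPKM, 66 had at least 1 FPKM and 5 were under 0.1 FPKM. The 10 highest members made up 48.0% of the members' summed level of 1018 FPKM. Kv auxiliary subunits held the largest share, 28.8%, followed by inward rectifiers with 17.1%, two-pore domain channels with 8.32%, Kv7 channels with 8.30% and Kv1 channels with 7.86%. Calcium- and sodium-activated channels held 6.81%, Kv3 6.04%, the ether-a-go-go (EAG), ERG and ELK channels 6.03%, the silent Kv modifiers 4.98% and Kv4 3.94%.

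**Figure D1:**
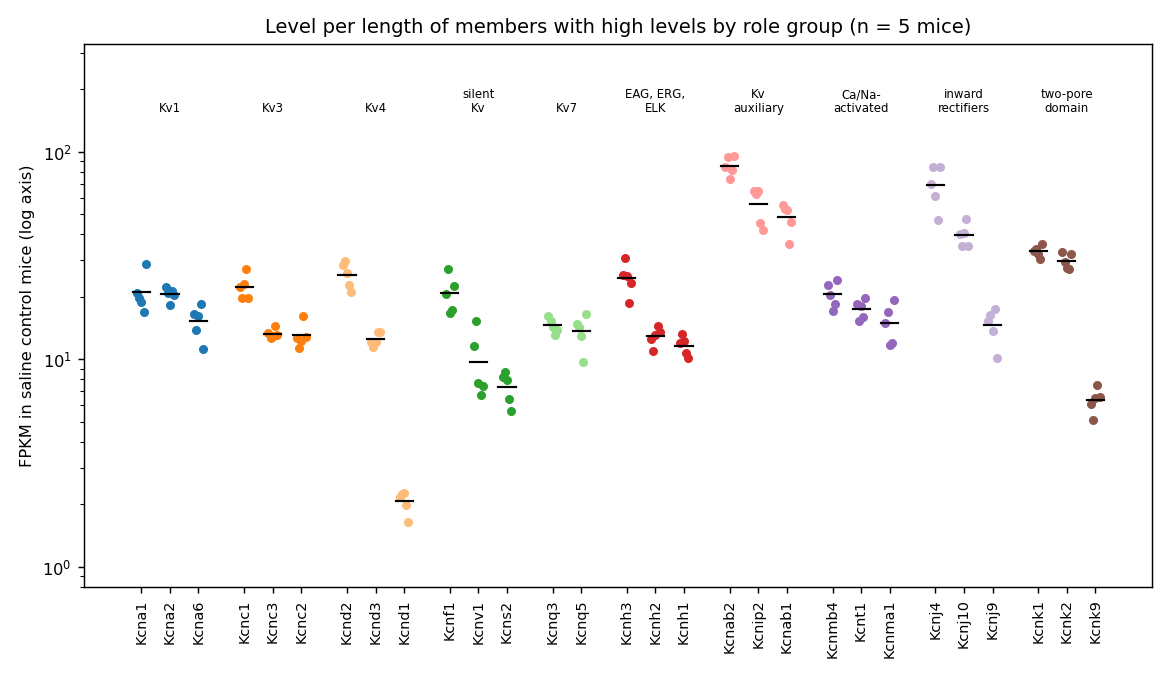
FPKM (log axis) of members with a high saline control mean in 10 role groups, up to 3 a group, 1 point per saline control mouse and a bar at the mean of 5 mice. Kcnab2, Kcnj4 and Kcnip2 lie highest, with means of 85.7, 69.2 and 55.9 FPKM, while Kcnd1 lies lowest with 2.06 FPKM.

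Among the auxiliary subunits, Kcnab2 led with 85.7 ± 8.73 FPKM (SD, n = 5, as for all levels in this and the next paragraph) and Kcnab1 had 48.3 ± 7.76 FPKM. Both encode Kv beta subunits that assemble with Kv1 alpha subunits. The KChIPs, calcium-binding partners of Kv4 pores, followed the order Kcnip2 (55.9 ± 11.5 FPKM), Kcnip3 (42.0 ± 5.28 FPKM), Kcnip4 (30.2 ± 3.80 FPKM) and Kcnip1 (11.8 ± 1.82 FPKM). The Kv4 pore Kcnd2 had 25.5 ± 3.63 FPKM, Kcnd3 12.5 ± 0.959 FPKM and Kcnd1 2.06 ± 0.260 FPKM, so that Kcnd2 was the leading Kv4 transcript in every saline control mouse. Among Kv1 pores, Kcna1 (21.0 ± 4.51 FPKM) and Kcna2 (20.5 ± 1.48 FPKM) differed by less than their spread, and Kcna4, the A-type Kv1 pore, had 8.41 ± 2.71 FPKM. Kcnc1, a Kv3 pore of fast-spiking cells, had 22.4 ± 3.05 FPKM. Kcnf1, a silent subunit that forms no channel alone and modifies Kv2 pores, reached 20.8 ± 4.28 FPKM.

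Kcnj4 (Kir2.3), a strong inward rectifier, stood at 69.2 ± 15.9 FPKM, well above Kcnj2 (Kir2.1) with 7.28 ± 1.18 FPKM and Kcnj12 (Kir2.2) with 4.26 ± 0.528 FPKM. The G protein-gated subunits Kcnj3 and Kcnj9 had 13.0 ± 3.29 and 14.6 ± 2.79 FPKM, and Kcnj10 (Kir4.1), the main inward rectifier of astrocytes, had 39.8 ± 5.09 FPKM. Kcnq3, a subunit of the channels that carry the M-current, had 14.5 ± 1.21 FPKM. The leak channels Kcnk1 (TWIK-1) and Kcnk2 (TREK-1) had 33.0 ± 2.07 and 29.8 ± 2.57 FPKM. Kcnh3, an ELK channel of forebrain neurons, had 24.7 ± 4.37 FPKM, and the large-conductance calcium-activated pore Kcnma1 and its neuronal beta subunit Kcnmb4 had 14.9 ± 3.22 and 20.6 ± 2.91 FPKM.

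Summed over all members, the level in control mice was 1018 ± 55.6 FPKM (SD, n = 5) under saline and 1153 ± 30.0 FPKM (n = 5) under amphetamine. In knockout mice it was 961 ± 92.8 FPKM (n = 5) and 996 ± 117 FPKM (n = 4). The amphetamine control mice ran from 1105 to 1185 FPKM and lay above all saline control mice, which ran from 945.5 to 1080 FPKM, whereas both knockout groups overlapped widely. The Kv auxiliary sum likewise separated amphetamine control mice, 329.7 to 358 FPKM, from saline control mice, 264 to 315 FPKM. The two-pore sum separated them too, with 93.1 to 98.8 against 80.8 to 88.9 FPKM. By narrow margins so did the Kv1 sum, with 83.94 to 91.1 against 78.3 to 83.93 FPKM. The Kv7 sum (89.88 to 98.5 against 73.0 to 89.70 FPKM) was also separate. That of the EAG, ERG and ELK channels was too (68.24 to 79.5 against 54.4 to 68.12 FPKM), while the other role sums overlapped. These sums are a description and were not tested.

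Given amphetamine, control mice had higher values of Kcnab1, Kcnq3, Kcnk2 and Kcnh3 and lower values of Kcnip1, Kcnj10 and Kcnj16 than given saline. Of 84 members tested, 54 had a log2 fold change above 0 (48.4% of all genes did), and the median of members was 0.14 against -0.01 over all 21513 genes. With edgeR's quasi-likelihood test 0 members passed an adjusted p under 0.05, and 0.00465% of all genes did. At an unadjusted p under 0.05 there were 21 members, 25% beside 11.8% of all genes, of which 12 were higher (4.89% of all genes) and 9 lower (6.95%). DESeq2 called 1 member on the same counts (0.92% of all genes), limma voom called 0, and the authors' deposited table called 9 of 82 members (4.21% of its genes), 6 higher (2.23%) and 3 lower (1.99%). The CPM of amphetamine and saline control mice did not overlap for 7 members, 8.33% against 3.9% of all genes.

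**Figure D2:**
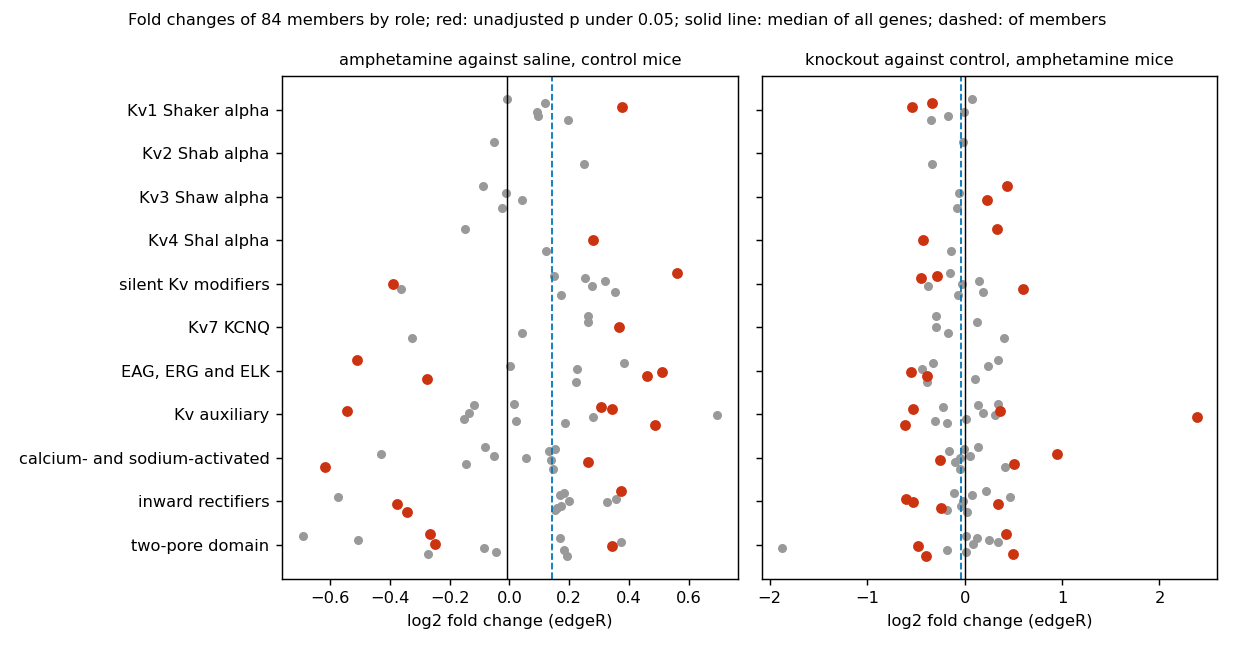
Log2 fold change (x axis) of each tested member by role group (y axis) for amphetamine against saline in control mice (left) and knockout against control in amphetamine mice (right), with unadjusted p under 0.05 in red. The median of the members (dashed) was 0.14 on the left and -0.03 on the right, beside all-gene medians (solid) of -0.01 and 0.00.

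Kcnip1, the KChIP of interneurons and the least abundant of its family here, had the smallest p of all members in the edgeR fit of this comparison. Its CPM (counts scaled by library size and TMM factor, as for all values from here on) was 43.6, 41.3, 43.8, 54.4 and 57.7 in saline control and 33.1, 32.8, 28.0, 38.9 and 32.4 in amphetamine control mice. All amphetamine values lay under all saline values. The log2 fold change was -0.54 (SE 0.12), with an edgeR adjusted p of 0.148, a DESeq2 adjusted p of 0.0147 and an adjusted p of 0.000916 in the authors' deposited table. In knockout mice it had 50.5, 48.1, 58.0, 59.7 and 46.1 CPM under saline and 43.4, 54.8, 34.6 and 37.7 CPM under amphetamine, which overlapped, with a log2 fold change of -0.30 (SE 0.13, edgeR adjusted p = 0.378). The difference between those responses was 0.25 (SE 0.18, edgeR adjusted p = 0.650), and the response averaged over genotypes was -0.42 (SE 0.09, edgeR adjusted p = 0.0600). Kcnip1 (ENSMUSG00000053519.18, GRCm39 chromosome 11, 33579339 to 33942988) overlaps Kcnmb1 in the annotation, and whether counting used strand is not given in the sources used here. Which of the 2 genes reads of the overlap were counted for, if any, is therefore not known. The same limit holds for 33 of the 86 members that overlap another listed gene, among them Kcnab1, Kcnd2, Kcnk2 and Kcnh3. Kcnmb1, a beta subunit of calcium-activated channels, had only 2.04 ± 0.304 CPM in saline control and 1.33 ± 0.400 CPM in amphetamine control mice.

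Kcnab1 (ENSMUSG00000027827.18, GRCm39 chromosome 3, 64856617 to 65285644), which encodes Kv beta 1 and confers inactivation on Kv1 channels, went the other way. It had 241, 232, 228, 157 and 201 CPM in saline control and 308, 259, 251, 319 and 349 CPM in amphetamine control mice. These groups did not overlap, and the log2 fold change was 0.49 (SE 0.15, edgeR adjusted p = 0.208, authors' deposited table adjusted p = 0.00968). In knockout mice the values were 206, 217, 232, 154 and 209 CPM under saline and 225, 163, 148 and 241 CPM under amphetamine, with a log2 fold change of -0.07. The difference between genotypes was -0.56 (SE 0.21, unadjusted p = 0.0160, edgeR adjusted p = 0.519). It therefore did not pass the test over all genes.

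Kcnq3 (ENSMUSG00000056258.10, GRCm39 chromosome 15, 65858236 to 66158491), the M-channel subunit, had 191, 181, 169.6, 154 and 163 CPM in saline control and 202, 217, 226, 224 and 240.5 CPM in amphetamine control mice. Again all amphetamine values lay above all saline values. The log2 fold change was 0.37 (SE 0.16, edgeR adjusted p = 0.370) and the authors' deposited table gave an adjusted p of 0.000285, the smallest of any member. Its response in knockout mice was 0.32 (SE 0.17) and the difference between genotypes -0.04 (SE 0.23, edgeR adjusted p = 0.956).

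Kcnk2, a mechanosensitive and lipid-sensitive leak channel, ran from 97.1 to 117 CPM in saline control and from 123 to 154 CPM in amphetamine control mice. Kcnh3 ran from 68.6 to 114 CPM and from 117 to 139.9 CPM. Neither pair of groups overlapped. Their log2 fold changes were 0.34 (SE 0.13) and 0.46 (SE 0.17), with edgeR adjusted p of 0.309 and 0.293 and authors' deposited adjusted p of 0.00332 and 0.00655. Kcnh4, a further ELK channel, and Kcng1, a silent subunit, were the remaining members called higher in the authors' deposited table, with log2 fold changes of 0.51 and 0.36 there.

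The inward rectifiers of glia stood lower in amphetamine control mice. Kcnj10 had 217, 191, 219.6, 257 and 189.8 CPM under saline and 159.5, 175, 147, 182 and 184 CPM under amphetamine. Kcnj16 (Kir5.1), which joins Kir4.1 in a shared channel, ran from 27.7 to 43.2 CPM and from 24.8 to 26.8 CPM. Both sets of groups were separate. The log2 fold changes were -0.34 (SE 0.14, edgeR adjusted p = 0.355) and -0.38 (SE 0.13, edgeR adjusted p = 0.269), and the authors' deposited table called both, with adjusted p of 0.0276 and 0.0317.

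**Figure D3:**
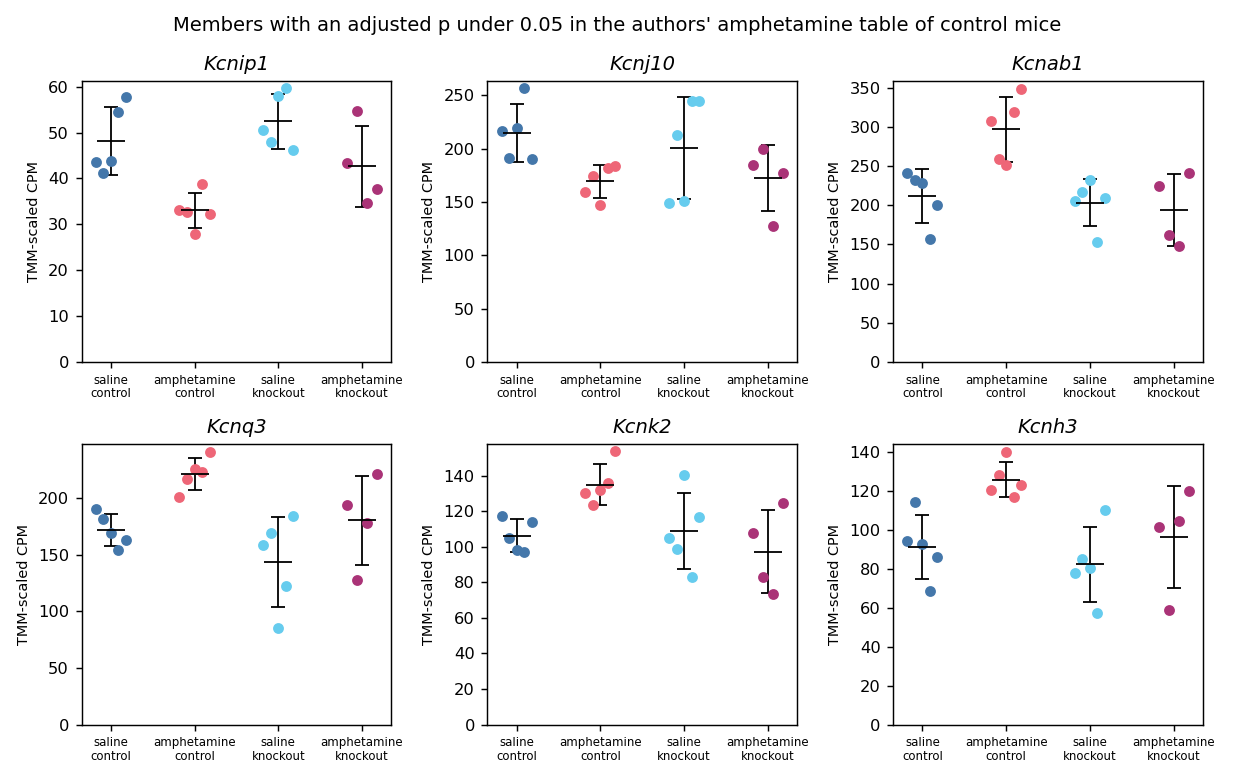
TMM-scaled CPM (y axis) of 6 of the 9 members that the authors' table calls in control mice, 1 point per mouse in each of 4 groups with mean and SD bars. In amphetamine control mice Kcnip1 and Kcnj10 lie under, and Kcnab1, Kcnq3, Kcnk2 and Kcnh3 above, all saline control mice, while the knockout groups overlap.

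By class, 8 of 12 auxiliary subunits, 9 of 12 inward rectifiers, 7 of 9 silent modifiers, 6 of 8 EAG-type channels and 5 of 6 Kv1 channels lay above 0 in that comparison. The Kv3 channels of fast-spiking neurons lay closest to 0, from -0.09 to 0.04, and 7 of 12 two-pore channels lay below 0. Marker genes moved along with these values. All 14 projection neuron markers and all 12 cortical projection neuron markers lay above 0 (5 and 2 with an unadjusted p under 0.05), with summed levels of 4254 to 6054 and 387 to 1050 CPM in saline control against 6353 to 8149 and 761 to 1507 CPM in amphetamine control mice. All 10 ependymal markers lay below 0, 8 with an unadjusted p under 0.05, from 36.6 to 55.7 CPM summed to 16.0 to 33.4 CPM, and 8 of 10 astrocyte markers lay below 0, from 4049 to 5049 to 4041 to 4544 CPM. None of these markers was at 0 in any library. Among the other lists, 9 of 10 hypothalamic and 7 of 8 pallidal and septal markers lay below 0, with an unadjusted p under 0.05 for 5 in each list. All 8 microglial markers lay above 0, 2 of them with an unadjusted p under 0.05. Of the hypothalamic list, Hcrt, Ghrh and Sim1 had a library at 0. The projection neuron score ran from 7.92 to 8.44 in saline control and 8.50 to 8.83 in amphetamine control mice. The ependymal score ran from 1.52 to 2.04 and from 0.20 to 1.31. Since these ranges were separate, a fit with such scores as covariates cannot tell marker level from treatment. With the projection neuron, cortical and ependymal scores as covariates 3 members had an unadjusted p under 0.05 (2.72% of all genes), and the median of members was -0.07. In that fit the log2 fold changes of Kcnq3 (-0.06) and Kcnh3 (-0.11) turned below 0, while Kcnip1 (-0.25) and Kcnab1 (0.25) kept their direction, and the part of cell make-up was not tested further. Without the 4 libraries that stand apart edgeR called Kcnip1 (adjusted p = 0.0445), beside 183 calls among 22138 genes. Without saline control 4 the count of members at an unadjusted p under 0.05 was 12, with no all-gene share given.

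In knockout mice no member passed the edgeR threshold for amphetamine against saline, and the members with the smallest p, Kcne2 and Kcnj9, each had 1 high library. Of 84 members 49 lay above 0 (48.9% of all genes did) with a median of 0.09 against -0.01 over all genes. With edgeR 0 members passed (0.00465% of all genes), and 9 had an unadjusted p under 0.05, a share of 10.7% beside 12.1% of all genes. DESeq2 called 1 member (0.46% of all genes), limma voom 0, and 0 of 81 members were called in the authors' deposited table (0.665% of its genes). No member had separate CPM ranges between these groups, where 5.07% of all genes did. The count at an unadjusted p under 0.05 was 14, 18, 3 and 14 without amphetamine knockout 1, 2, 3 and 4 in turn, and 5 with the 3 marker scores as covariates (7.06% of all genes).

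The member that DESeq2 called was Kcne2, a single-pass subunit that is abundant in choroid plexus epithelium. Its CPM was 0.142, 2.20, 0.0837 and 0.206 in amphetamine knockout mice and 0.0261 to 0.138 in saline knockout mice. A single library, amphetamine knockout 2, lay above all others. The log2 fold change was 2.94 (SE 0.81, edgeR adjusted p = 0.278, DESeq2 adjusted p = 0.0446). The summed level of 10 choroid plexus markers was 727 CPM in that library and at most 94.7 CPM in the saline knockout mice, and 7 of the 10 lay above 0. Without amphetamine knockout 2 and 3 the log2 fold change of Kcne2 was 1.04 (edgeR adjusted p = 0.700). The part of choroid plexus tissue in this value was not tested beyond that. Kcnj9, the G protein-gated Kir3.3, had 58.3, 61.3, 52.9, 64.8 and 69.3 CPM under saline and 66.5, 59.2, 130.4 and 82.8 CPM under amphetamine, with the highest value in amphetamine knockout 3 (log2 fold change 0.47, SE 0.18, edgeR adjusted p = 0.338). Without that library the log2 fold change of Kcnj9 was 0.18 (SE 0.15, edgeR adjusted p = 0.700). In control mice its log2 fold change was 0.37 (SE 0.17, edgeR adjusted p = 0.412). Both amphetamine comparisons use different mice.

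Under saline, few members had a small p for knockout against control mice, which is not a test that the groups were alike. With edgeR 0 members passed, as did 0% of all genes, and 3 members had an unadjusted p under 0.05 (3.57% beside 7.94% of all genes). DESeq2 called 0 (0.0093% of all genes), limma voom 0, and 0 of 86 members were called in the authors' deposited table (0.00439% of its genes). The 3 were Kcnt1, a sodium-activated channel, with a log2 fold change of -0.27 (SE 0.11), Kcnj8, the Kir6.1 pore of KATP channels, with 0.33 (SE 0.12), and Kcnu1 with 0.29 (SE 0.13), each with an edgeR adjusted p of 0.614. No member had separate ranges, beside 0.911% of all genes. The median of members was -0.06 against 0.00 over all genes, and 32 of 84 lay above 0 (51% of all genes). Without the 4 libraries that stand apart 3 members again had an unadjusted p under 0.05 (5.76% of all genes), of which Kcnu1 was in both counts and Kcnt1 (-0.15) and Kcnj8 (0.22) were not. The count of 3 was 7 without saline control 4 and 6 without saline knockout 5, and 7 with the 3 marker scores as covariates (9% of all genes).

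That comparison holds the library in which the members were most often at the bottom. Saline knockout 3 had the lowest CPM of all 19 libraries for 29 of 77 members with a mean of at least 1 CPM (37.7%, beside 23.1% of 15225 genes at that level). For 23 of the 77 (29.9%, beside 11.6% of all genes) it lay under 66.7% of the median of the other saline knockout mice. It was highest for 4 of the 77 (5.19%), beside 24% of all genes. Kcna1 had 90.0, 87.6, 19.7, 65.3 and 78.9 CPM in saline knockout mice, Kcna3 7.84, 8.47, 1.07, 9.94 and 8.88 CPM, and Kcna2 256, 238, 139.9, 199 and 234 CPM. In each, the third mouse was the low one. Kcnd2 with 134 CPM, Kcnip2 with 195 CPM and Kcnj4 with 145 CPM in that mouse were not low, and its projection neuron score was 8.31. The other saline knockout mice ran from 7.72 to 8.36 in that score. Amphetamine knockout 3 stood out in both directions, lowest for 13 and highest for 19 of the 77 members (16.9% and 24.7%, beside 8.83% and 10.1% of all genes). The cause of these departures was not tested.

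**Figure D4:**
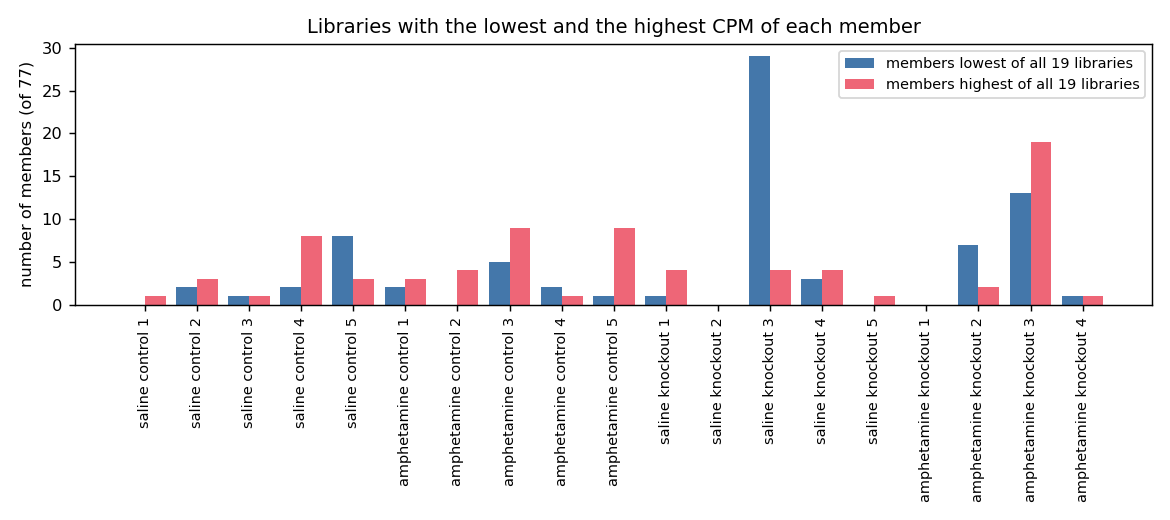
Number of members (y axis, of 77 with a mean of at least 1 CPM) for which each library (x axis) had the lowest or the highest CPM of all 19. Saline knockout 3 is lowest for 29 members and amphetamine knockout 3 is highest for 19.

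Given amphetamine, knockout mice had lower values than control mice of Kcna4, Kcnab1, Kcnd2, Kcnip2, Kcnj4, Kcnk1 and Kcns2 and higher values of Kcnk9 and Kcnn4, with separate ranges and none past the edgeR threshold. Kcnn4 was at a very low level, with 0.231 to 0.282 CPM in amphetamine control and 0.388 to 0.533 CPM in amphetamine knockout mice. With edgeR 0 members passed, as did 0% of all genes, and 26 had an unadjusted p under 0.05, 31.0% beside 12.8% of all genes, of which 11 were higher (7.44% of all genes) and 15 lower (5.34%). DESeq2 called Kcnab1 (adjusted p = 0.0391) and Kcnk1 (adjusted p = 0.0479), beside 0.493% of all genes, and limma voom called 0. Ranges were separate for 9 members, 10.7% beside 6.79% of all genes. Of 84 members 37 lay above 0 (51% of all genes), with a median of -0.03 against 0.00 over all genes. Some classes were split at an unadjusted p under 0.05 and others were not. Among both the 12 auxiliary subunits and the 12 two-pore channels 2 members were higher and 2 lower. Among the 12 inward rectifiers 1 was higher and 3 lower, and among the 9 silent modifiers 1 and 2. The calcium- and sodium-activated channels had 2 higher and 1 lower, and the Kv4 channels 1 and 1. Both the Kv1 and the EAG-type channels had 0 higher and 2 lower, while the Kv3 channels had 2 higher and 0 lower. This comparison shares the amphetamine control mice with the amphetamine comparison in control mice, so the same libraries enter both.

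Kcnd2 (ENSMUSG00000060882.6, GRCm39 chromosome 6, 21215502 to 21729804), the Kv4.2 pore of the somatodendritic A-type current, had 171, 155, 149.5, 157 and 166 CPM in amphetamine control and 136, 105, 91.5 and 143 CPM in amphetamine knockout mice. Kcnip2 (ENSMUSG00000025221.17, GRCm39 chromosome 19, 45780278 to 45804500), its KChIP partner, had 243, 209.9, 195, 222 and 235 CPM and 169, 119, 144 and 182 CPM. In both genes, amphetamine knockout 2 and 3 were the lowest and the groups were separate. The log2 fold changes were -0.43 (SE 0.12) and -0.53 (SE 0.15), each with an edgeR adjusted p of 0.225. Kcna4, the Kv1.4 A-type pore, ran from 50.4 to 54.1 CPM against 26.4 to 42.6 CPM (log2 fold change -0.54, SE 0.19, edgeR adjusted p = 0.257), and Kcnab1 had a log2 fold change of -0.61 (SE 0.16, edgeR adjusted p = 0.220). Another Kv4 pore, Kcnd3, and the A-type Kv3 pore Kcnc4 lay on the other side, with log2 fold changes of 0.33 (SE 0.14, edgeR adjusted p = 0.338) and 0.43 (SE 0.17, edgeR adjusted p = 0.286). Across the 19 libraries with group means removed, Kcnd2 and Kcnip2 had a Pearson r of 0.78 (Spearman 0.77, and 0.82 without the 2 farthest libraries) and Kcnab1 and Kcnd2 one of 0.85 (Spearman 0.84, and 0.85), where the median over 2926 pairs of members was 0.14. These libraries share tissue make-up and depth, and the values are descriptions.

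Kcnj4 (ENSMUSG00000044216.8, GRCm39 chromosome 15, 79367915 to 79389442) had 198, 192, 215, 172 and 178 CPM in amphetamine control and 143, 82.3, 112 and 167 CPM in amphetamine knockout mice (log2 fold change -0.60, SE 0.20, edgeR adjusted p = 0.247). Kcnj2 had a log2 fold change of -0.53 (SE 0.20, edgeR adjusted p = 0.280), with ranges of 41.0 to 60.6 and 23.5 to 43.9 CPM that overlapped. Kcnk1 (ENSMUSG00000033998.10, GRCm39 chromosome 8, 126721909 to 126757424) had 90.6, 92.2, 83.6, 76.4 and 79.1 CPM and 72.5, 57.0, 53.2 and 74.2 CPM (log2 fold change -0.39, SE 0.10, edgeR adjusted p = 0.220). In all 3 genes amphetamine knockout 2 and 3 were the lowest of their group. Kcnk9 (TASK-3), an acid-sensitive leak channel, was the reverse, with 58.4 to 75.4 CPM in amphetamine control and 78.3 to 108 CPM in amphetamine knockout mice (log2 fold change 0.43, SE 0.13, edgeR adjusted p = 0.227).

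**Figure D5:**
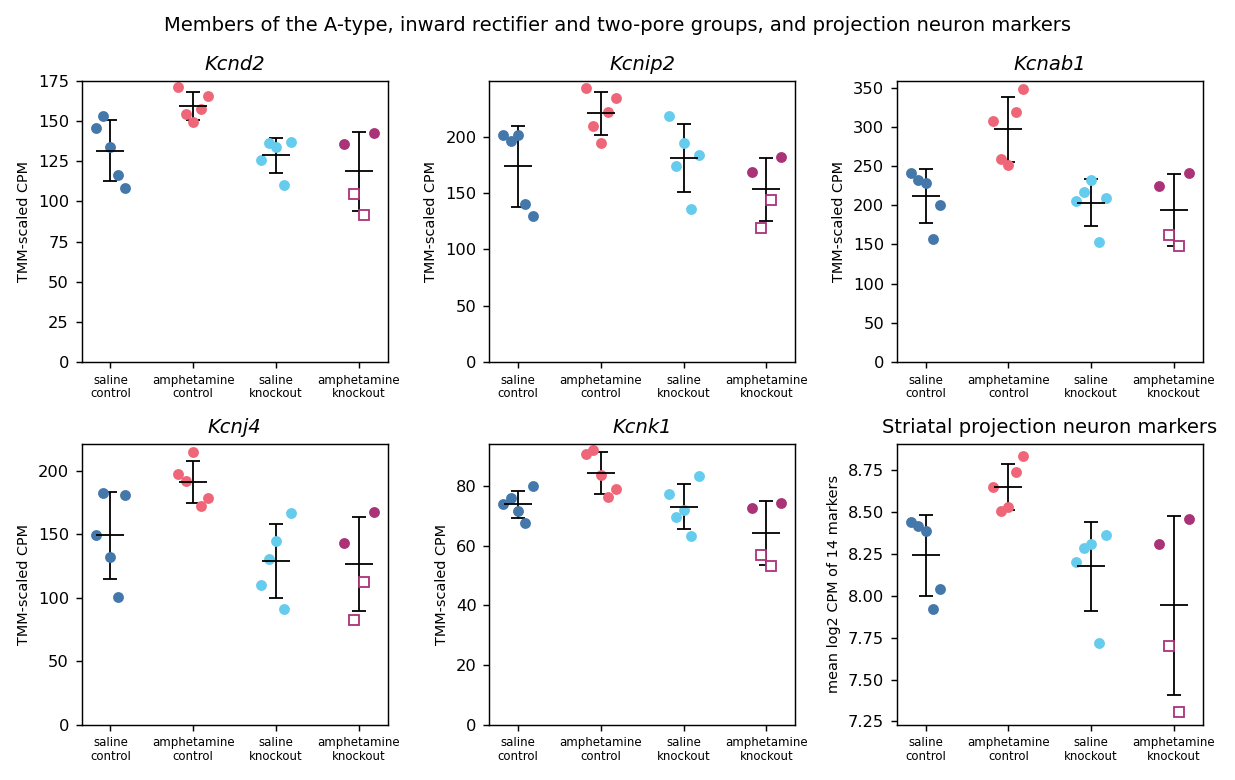
TMM-scaled CPM of 5 members, and mean log2 CPM of 14 projection neuron markers, 1 point per mouse in 4 groups with mean and SD bars. Open squares are amphetamine knockout 2 and 3, which have the lowest marker scores (7.70 and 7.31) and the lowest Kcnd2, Kcnip2, Kcnab1, Kcnj4 and Kcnk1 of their group.

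Promoter windows of Kcnip2 and Kcnj4 are printed as examples of an auxiliary subunit and an inward rectifier whose values were lower in these mice. They were picked after their values were seen, and other lower members are not shown. The windows are the 250 bases before the RefSeq start (GRCm38.p6), 5′ to 3′ on the gene's own strand, at chr19:45816064-45816313 (minus strand) for Kcnip2 and chr15:79505242-79505491 (minus strand) for Kcnj4. Capitals mark the GC box GGGCGG, the site of Sp-family factors, and TGACG, a cyclic AMP response element (CRE) half-site, on either strand.
Kcnip2: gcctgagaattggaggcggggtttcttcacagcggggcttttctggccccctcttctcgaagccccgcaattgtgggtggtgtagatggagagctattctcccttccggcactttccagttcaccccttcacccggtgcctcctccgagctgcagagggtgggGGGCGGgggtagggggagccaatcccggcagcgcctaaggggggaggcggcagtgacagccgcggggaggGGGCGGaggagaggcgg
Kcnj4: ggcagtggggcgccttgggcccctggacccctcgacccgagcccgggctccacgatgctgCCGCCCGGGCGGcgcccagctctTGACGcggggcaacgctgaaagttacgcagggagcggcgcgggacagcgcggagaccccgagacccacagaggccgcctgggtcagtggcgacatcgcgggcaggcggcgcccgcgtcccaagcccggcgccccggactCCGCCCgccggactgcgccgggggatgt
Kcnip2 held 2 GC boxes and 0 CRE half-sites and Kcnj4 held 3 and 1, with a pair of the GC boxes of Kcnj4 side by side on opposite strands. Over the 87 windows of the 62 members in that table, 48.3% held a GC box and 14.9% a CRE half-site, beside 32.7% and 17.8% of all 32851 windows of that length. A match is a match of letters and says nothing about binding.

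Marker genes differed in the same comparison. All 14 projection neuron markers lay below 0 in amphetamine knockout against amphetamine control mice, 13 with an unadjusted p under 0.05, and their summed level was 6353 to 8149 CPM in amphetamine control and 2717 to 6190 CPM in amphetamine knockout mice. Ependymal markers lay above 0 in 9 of 10 (summed 16.0 to 33.4 against 29.7 to 49.5 CPM) and choroid plexus markers in 10 of 10 (35.2 to 81.9 against 52.1 to 727 CPM). Hypothalamic markers lay above 0 in 9 of 10 and pallidal and septal markers in 7 of 8, with an unadjusted p under 0.05 for 5 and 3. Without amphetamine knockout 2 and 3, 3 members had an unadjusted p under 0.05 (1.83% of all genes), namely Kcnab1, Kcnip1 and Kcnn4. Only amphetamine knockout 1 and 4 are then left in their group, so a lower count also goes with fewer mice. Without all 4 libraries that stand apart there were 5 members at that p (4.34%), and with the 3 marker scores as covariates 0 (1.23%). The projection neuron score ran from 8.50 to 8.83 in amphetamine control and 7.31 to 8.46 in amphetamine knockout mice. Since these ranges were separate, the covariate fit cannot tell marker level from genotype. Without amphetamine knockout 2 alone the count of members at an unadjusted p under 0.05 was 17, and without 3 alone it was 16. The log2 fold changes without both were -0.19 for Kcnd2, -0.33 for Kcnip2, -0.35 for Kcnab1, -0.34 for Kcna4, -0.29 for Kcnj4, -0.19 for Kcnj2 and -0.20 for Kcnk1. They were 0.32 for Kcnk9, 0.18 for Kcnd3 and 0.18 for Kcnc4. Each of these kept its direction at a smaller size. The part of cell make-up in these differences was not tested further.

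The test of the difference between the amphetamine responses of the genotypes called 0 members with edgeR (0% of all genes), 0 with DESeq2 (0.0697%) and 0 with limma voom. Of 84 members 46 lay above 0 (50.9% of all genes). At an unadjusted p under 0.05 there were 14, 16.7% beside 9.25% of all genes, of which 5 were above 0 (5.2% of all genes) and 9 below (4.05%). Without amphetamine knockout 2 and 3, a fit with fewer mice, there were 2 (3.42%). Kcnip2 had the smallest p, with responses of 0.35 in control and -0.24 in knockout mice and a difference of -0.59 (SE 0.21, edgeR adjusted p = 0.519). Kcnk1 differed by -0.38 (SE 0.14), Kcnk2 by -0.51 (SE 0.19), Kcna4 by -0.63 (SE 0.26), Kcnj8 by -0.44 (SE 0.18) and Kcnd2 by -0.39 (SE 0.16), each with an edgeR adjusted p of 0.519. On the other side were Kcnk10 with 0.58 (SE 0.22), Kcnn4 with 1.14 (SE 0.45) and Kcnk9 with 0.44 (SE 0.18), also with an edgeR adjusted p of 0.519. The level of Kcnn4 was at most 0.699 CPM in any library. That value came from saline control 2, where the next of its group was 0.278 CPM. Without amphetamine knockout 2 and 3 the differences were -0.39 for Kcnip2, -0.28 for Kcnab1, -0.18 for Kcnk1, -0.24 for Kcnk2, -0.42 for Kcna4 and -0.16 for Kcnd2. In the same fit they were -0.45 for Kcnj8, 0.28 for Kcnk10, 1.07 for Kcnn4 and 0.33 for Kcnk9.

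Averaged over genotypes, amphetamine mice had 61 of 84 members above 0 (47.5% of all genes) with a median of 0.07 against -0.01. With edgeR 0 members passed (0.149% of all genes), 25 had an unadjusted p under 0.05 (29.8% beside 14.5%), DESeq2 called Kcnip1 alone (adjusted p = 0.00433, 2.02% of all genes) and limma voom called 0. Without the 4 libraries that stand apart edgeR called 7 members, Kcnip1, Kcng4 and Kcnj16 lower and Kcnk2, Kcnmb4, Kcnq3 and Kcnq5 higher, beside 3.39% of all genes. It called 2, 1 and 1 without amphetamine knockout 2, saline control 2 and saline control 5. Averaged over treatments, knockout mice had 29 of 84 members above 0 (51.9% of all genes) with a median of -0.07 against 0.01. There edgeR called 0 (0% of all genes), DESeq2 0 (0.0511%) and limma voom 0. An unadjusted p under 0.05 was found for 25 (29.8% beside 11.6%). Without amphetamine knockout 2 and 3, a fit with fewer mice, 2 were left, beside 740 of 22307 genes. The count was 16, 14, 16, 15 and 16 without amphetamine knockout 2, amphetamine knockout 3, saline control 1, saline control 2 and saline knockout 4.

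Within groups the members had a higher median spread than all genes at the same minimum level. The coefficient of variation (SD over mean of CPM, averaged over groups) had a median of 16.1% over 77 members and 11.2% over 15225 genes with a mean of at least 1 CPM, and 64 of the 77 lay above that all-gene median. By group the members' median was 9.77% in amphetamine control, 14.9% in saline control, 18.4% in saline knockout and 20.6% in amphetamine knockout mice. Kcnj5 (35.0%), Kcnj6 (29.9%), Kcnk5 (29.3%), Kcnv1 (28.5%) and Kcnh7 (27.6%) varied most. Kcnj10 and Kcnj16, which co-assemble, had a Pearson r of 0.40 over 19 libraries with group means removed (Spearman 0.39, and 0.72 without the 2 farthest). Kcna2 and Kcnab1, also known partners, had one of 0.14 (Spearman 0.22, and 0.45).

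Partner proteins that bind or regulate these channels, such as Dpp10, the HCN channels and scaffold proteins, were examined as a fixed list. Of 32 listed, 30 were in the files and tested, and edgeR called 0 in each comparison. In control mice 21 of 30 lay above 0 under amphetamine (48.4% of all genes did), and 7 had an unadjusted p under 0.05 (11.8% of all genes). Among those 7, Tmem38a (0.18, SE 0.07), Nedd4l and Dlg1 were among the higher and Hcn3 (-0.34, SE 0.14), Hcn4 and Dpp6 were lower. In knockout against control mice under amphetamine 8 of 30 lay above 0 (51% of all genes), and 6 had an unadjusted p under 0.05 (12.8% of all genes). Hcn2, Dlg1, Nedd4l and Cntnap1 were lower, and Dpp10 (0.27, SE 0.10), an auxiliary subunit of Kv4 channels, and Hcn4 were higher, all with an edgeR adjusted p of at least 0.266. Without amphetamine knockout 2 and 3, 0 of the 30 had an unadjusted p under 0.05 there (1.83% of all genes), and Dpp10 had a log2 fold change of 0.13.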

How the data were processed

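The deposited files hold, per library, whole-number read counts per gene that the authors made with HTSeq 0.6.1p2 after Trim Galore 0.5.0 and STAR 2.6.0c on GRCm39, per the submitters' processing notes, with FastQC 0.11.5 also named. The authors' deposited tables hold FPKM per library, a baseMean signal (mean normalised count), log2 fold changes, a test statistic (score) and p-values from DESeq2 1.26.0s in R 3.6.1, per the file headers and the submitters' processing notes. Strand use in counting and the annotation release were not given in the sources used here. A knockout library that the authors left out of their knockout table is not analysed here.

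The counts of 19 libraries were filtered with filterByExpr, TMM-scaled and fitted with 4 group means by edgeR 4.0.16 (robust quasi-likelihood test, R 4.3.3), with Benjamini-Hochberg adjustment over 21513 genes and a threshold of 0.05. The 7 contrasts were the amphetamine effect per genotype, the knockout effect per challenge, the interaction and both averaged effects. DESeq2 1.42.0, limma 3.58.1 (voom), other scalings and filters, the replicate block and leaving out libraries were alternatives. CPM is TMM-scaled, levels between genes are compared in FPKM, and fits were tested on simulated data. Total counts ran from 57003408 to 85536346. Named genes were the 3 highest per role, the 8 with the smallest p per contrast (5 for the mean contrasts), a fixed set of 18 striatal channel genes, the 5 with the largest within-group variation, and members called at the threshold in any contrast or in the authors' tables. Members and lists were chosen with earlier results of these data known. Promoters came from RefSeq GRCm38.p6, a build other than that of the files, and are not placed on GRCm39. Results for some genes are not reported here.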

Additional observations from a re-analysis of the deposited data

Results flagged for a closer look

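In each of 7 of 140 checks over 35 members, 1 library lay far from the others of its group. Chance gives about 1 in 20. In amphetamine knockout 2, Kcne2 had 2.20 CPM, with 0.206 CPM as the next value. In amphetamine knockout 3, the leak channel Kcnk10 had 12.6 CPM (next 7.30) and the beta subunit Kcnmb1 2.19 CPM (next 1.68), both highest, and the silent subunit Kcng4 had 1.58 CPM, the lowest (next 2.82). In saline control 2, the leak channel Kcnk15 had 1.48 CPM (next 0.229) and the calcium-activated channel Kcnn4 0.699 CPM (next 0.278). In saline control 5, the auxiliary subunit Kcne4 had 5.30 CPM (next 2.53).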

How the results depend on the processing

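Calls by edgeR were 0 in all 7 comparisons, and alternatives gave few. DESeq2 called 1 member for amphetamine in control mice, 1 in knockout mice, 2 for knockout under amphetamine and 1 for the mean amphetamine response. With only the groups compared in the fit, 1 was called (Kcnq3, control mice, adjusted p = 0.0460), beside 75 of 20076 genes. With no filter on low counts 1 was called (Kcnip1, mean response, adjusted p = 0.0405), beside 26 of 38077 genes. Without the 4 libraries that stand apart there were 1 (control mice) and 7 (mean response), beside 183 and 751 of 22138 genes. Without amphetamine knockout 2 and 3 there was 1 (mean response), beside 96 of 22307 genes.

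Counts at an unadjusted p under 0.05 moved more. With only the groups compared they were 32 in control mice (2999 of 20076 genes) and 4 in knockout mice (1950 of 20685 genes). DESeq2 gave 6 for knockout under saline (1833 of 21513 genes). With 3 marker scores as covariates the counts were 3, 5, 7, 0, 1, 8 and 0 for amphetamine in control mice, amphetamine in knockout mice, knockout under saline, knockout under amphetamine, the difference between responses, the mean response and the mean knockout difference. Over all 21513 genes they were 585, 1518, 1936, 265, 660, 1117 and 489 in that fit. There the members' median was -0.073 in control mice and -0.034 for the mean response, with 27 and 33 members above 0. Without the 4 libraries the counts were 5 for knockout under amphetamine, 0 for the difference and 7 for the mean knockout difference, and without amphetamine knockout 2 and 3 they were 3, 2 and 2. All-gene counts were 960, 869 and 1310 of 22138 in the first fit, and 408, 763 and 740 of 22307 in the second. Leaving out 1 library at a time gave 12 to 28, 3 to 18, 2 to 7, 16 to 32, 10 to 18, 19 to 32 and 14 to 31 in the order above, and 0 to 2 calls for the mean response.

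Under the marker covariates Kcnh3 (-0.11), Kcnh4 (-0.000909) and Kcnq3 (-0.061) reversed in control mice. The projection neuron and ependymal scores had separate ranges in the control groups, so this fit cannot tell marker level from treatment. For knockout under saline Kcnk15 reversed to 0.050 without saline control 2, and ranged from -2.32 to 0.050 with 1 library left out. The cause was not tested. Same-numbered mice did not deviate together (r from -0.349 to 0.154 over 27 pairs), and with a replicate block 0 members were called in each comparison. The counts of members at an unadjusted p under 0.05 were then 19 in control and 10 in knockout mice, beside 2252 and 2695 of 21513 genes. Levels as CPM in place of FPKM were not run, since CPM is not per length.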
